A study of Rattus norvegicus with 8 samples.

Results

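Neurotrophin ligands, neurotrophin receptors and the glial cell line-derived neurotrophic factor (GDNF) co-receptor Gfra1 were examined in rat embryos labelled Pax6 homozygous or wild-type. The genes were Bdnf, Ntf3, Ngfr, Ntrk2, Ntrk3 and Gfra1. All probe sets of the array that the platform annotation assigns to 1 of these 6 symbols and to no other gene were taken, which gave 17 of 8799 probe sets, for 6 of 4736 named genes. Ngfr, Ntrk2, Ntrk3, Ntf3 and Gfra1 had 2 probe sets each and Bdnf had 7.

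RNA was taken at E12.5 (embryonic day) from Pax6 homozygous hindbrain, wild-type hindbrain, Pax6 homozygous forebrain and wild-type forebrain, with 2 arrays for each. Pax6 is a transcription factor gene of eye, nose and forebrain development, and the title of the series names its downstream targets in the early brain as the subject. The labels do not name the Pax6 allele, the rat strain or the number of embryos behind an array. The embryos were divided at the isthmus, so midbrain, eye and nose tissue went with the forebrain, while pharyngeal arches and tissue as far back as the upper forelimb went with the hindbrain. Tissue was therefore mixed, and cranial ganglia and arch mesenchyme of crest origin cannot be told apart from the central nervous system in it. In such bulk RNA, fewer cells of a type and less RNA per cell cannot be told apart.

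Neurotrophins are secreted growth factors that keep developing neurons alive and guide their differentiation. Bdnf acts mainly through the receptor tyrosine kinase TrkB, the product of Ntrk2, and Ntf3 mainly through TrkC, the product of Ntrk3. Ngfr encodes p75, which binds all neurotrophins and is well known from migrating neural crest, sensory and sympathetic ganglia and embryonic motor neurons. Gfra1 is anchored to the cell surface and presents GDNF to the receptor kinase Ret, a pairing used by enteric, autonomic and motor neurons.

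The arrays gave 1 intensity per probe set on a linear scale that reached below 0. The size of the 5th percentile of an array served as its noise level, which lay between 243 and 619.8. The paired log2 intensities within a group had r between 0.899 and 0.947 across tested probe sets. Nothing in the labels says that the arrays came from separate litters, so the p-values measure the spread from array to array alone, and that spread may be technical. The Pax6 probe set (S74393_s_at) read 1194 and 1111 in Pax6 homozygous hindbrain, against 827 and 531 in wild-type hindbrain. It read 1243 and 927 in Pax6 homozygous forebrain, against 1197 and 636 in wild-type forebrain. The genotypes did not overlap in hindbrain, where Pax6 homozygous arrays read higher, and overlapped in forebrain, and neither difference passed (log2 0.80 ± 0.42 and 0.30 ± 0.42). Neither the allele nor the stretch of transcript under these probes is known here, so this reading does not check the genotype labels. The dissection labels were borne out by the regional genes that passed. Hoxa5 of the caudal hindbrain and cord was above noise on 4 of 4 hindbrain and 0 of 4 forebrain arrays (adjusted p = 7.80e-05 with limma). Lhx2 of the forebrain was lower in hindbrain by a log2 difference of -2.39 ± 0.14 (SE). Of 4 tested hindbrain and cord genes, 3 had a positive log2 difference and 2 passed as higher in hindbrain. Of 4 tested forebrain and midbrain genes, 0 were positive and 2 passed as lower. Over all 3553 genes tested, 40 passed as higher and 14 as lower. Hoxc4, the hindbrain and cord gene with a negative difference, was under noise on all arrays.

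Of the 17 probe sets, 10 were bright enough to be tested, that is, above an intensity of 255 on at least 2 arrays. They were 2 of Ngfr, 4 of Bdnf, 2 of Ntf3 and 2 of Gfra1. Ntrk2 and Ntrk3 had 0 tested probe sets. They were tested in a limma fit over all 5881 tested probe sets, with Benjamini-Hochberg adjustment over all of them and an adjusted p threshold of 0.05.

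**Figure D1:**
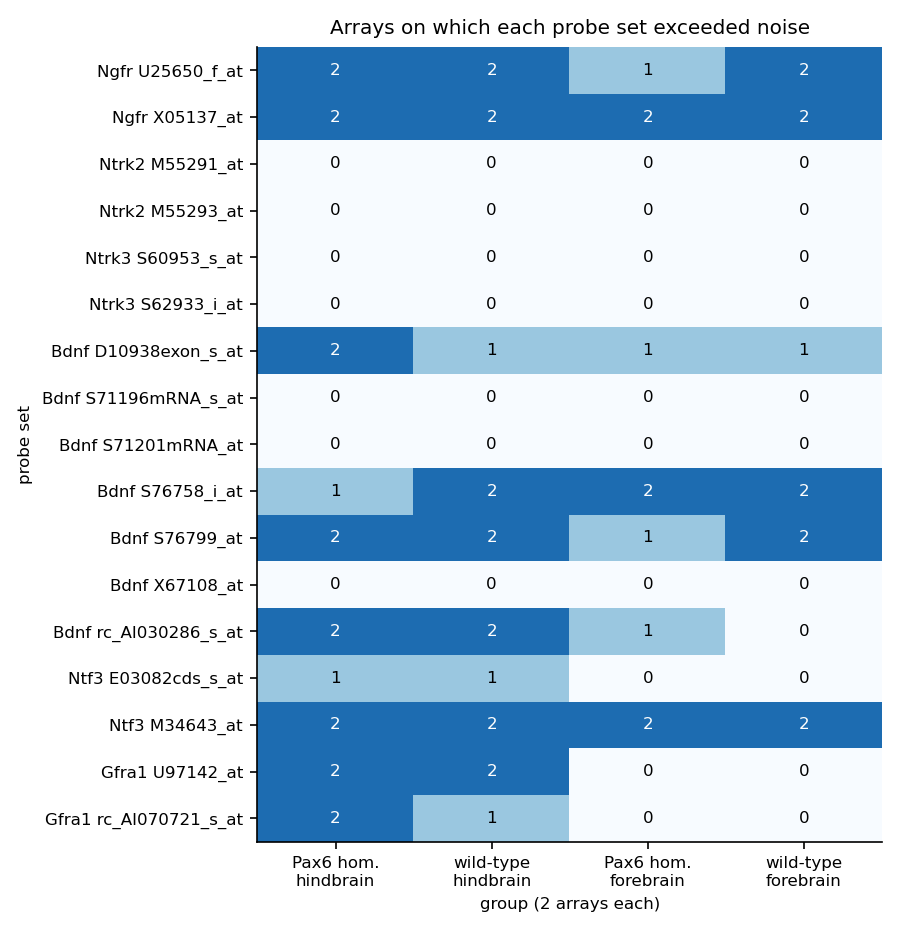
Number of arrays, out of 2 in each group, on which each of the 17 probe sets (rows) exceeded the noise level of its array, by group (columns). X05137_at of Ngfr and M34643_at of Ntf3 exceeded noise on all 8 arrays, and the 4 probe sets of Ntrk2 and Ntrk3 on 0.

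Ntrk2 and Ntrk3, the TrkB and TrkC genes, were not detectable against noise. The Ntrk2 probe sets ranged from -236.1 to 57.7 (M55291_at) and from -91.0 to 276 (M55293_at), and those of Ntrk3 from -232 to 360 (S60953_s_at) and from -225 to 39.0 (S62933_i_at). The highest of these, 360 for Ntrk3 in Pax6 homozygous hindbrain replicate 1, lay under the noise level of 389 on that array. These readings set no order among groups and do not show that TrkB and TrkC transcripts were absent. They also leave the receptors of Bdnf and Ntf3 without a usable level in any group.

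Promoter sequences are shown for Gfra1, whose probe sets separated the regions, and for Ntf3, whose brighter probe set was above noise on all arrays and overlapped between regions. They come from RefSeq (build GRCr8), which matched 3 of the 6 genes by symbol, Bdnf, Ntf3 and Gfra1, and run from 250 bases before to 50 after a start site. Capitals mark the homeodomain core TAAT and the GC box GGGCGG, each on either strand, and the 2 motifs did not overlap. The Gfra1 window is chr1:267555762-267556061, minus strand. The upstream Ntf3 start site is chr4:160670574-160670873 and the downstream one chr4:160668858-160669157, both minus strand. A further listed Ntf3 start site lies 1 base from the upstream one and is not printed.
Gfra1: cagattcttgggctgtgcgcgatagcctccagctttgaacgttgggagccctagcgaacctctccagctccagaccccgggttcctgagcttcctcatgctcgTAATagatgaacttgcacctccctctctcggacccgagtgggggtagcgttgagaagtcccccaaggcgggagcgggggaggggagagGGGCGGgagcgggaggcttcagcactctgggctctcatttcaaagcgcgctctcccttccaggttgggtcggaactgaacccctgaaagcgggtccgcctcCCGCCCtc
Ntf3 upstream: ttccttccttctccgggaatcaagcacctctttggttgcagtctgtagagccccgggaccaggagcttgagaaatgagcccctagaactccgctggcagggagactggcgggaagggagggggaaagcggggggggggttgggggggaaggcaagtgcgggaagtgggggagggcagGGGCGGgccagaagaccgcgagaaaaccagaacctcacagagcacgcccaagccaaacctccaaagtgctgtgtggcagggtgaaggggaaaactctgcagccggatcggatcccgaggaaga
Ntf3 downstream: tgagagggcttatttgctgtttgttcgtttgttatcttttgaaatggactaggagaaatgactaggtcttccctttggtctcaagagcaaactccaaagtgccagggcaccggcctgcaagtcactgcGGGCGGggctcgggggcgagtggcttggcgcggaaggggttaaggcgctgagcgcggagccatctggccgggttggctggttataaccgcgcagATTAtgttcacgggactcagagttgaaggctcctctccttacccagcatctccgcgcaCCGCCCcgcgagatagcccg

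The Gfra1 window held 1 TAAT core and 2 GC boxes. The Ntf3 windows held 0 and 1 TAAT cores, and 1 and 2 GC boxes, in the order printed. Of 33469 RefSeq promoter windows of the same length, 60.6% held TAAT and 33.1% held GGGCGG, so these matches are common. A match is a description of the letters and not evidence of binding.

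Ngfr, the p75 receptor, was higher in the hindbrain part than in the forebrain part by its probe set X05137_at. That probe set read 4533 and 4266 in Pax6 homozygous hindbrain and 7502 and 5762 in wild-type hindbrain. It read 2309 and 2211 in Pax6 homozygous forebrain and 2287 and 2442 in wild-type forebrain. All 4 hindbrain arrays lay above all 4 forebrain arrays, and all 8 were far above noise. The mean was 5516 ± 1476 in hindbrain and 2312 ± 96.1 in forebrain (SD, n = 4 arrays each), a log2 difference of 1.22 ± 0.15 (SE), or 2.33-fold (limma, adjusted p = 0.00359). It was 1 of 10 tested probe sets past the threshold for region, against 1.51% of all probe sets tested (89 of 5881). The call held in all 16 alternatives tried, with log2 differences between 1.12 and 1.31.

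By X05137_at, the Ngfr difference was present in both genotypes when each was taken alone, although it passed the test in 1 of them. In Pax6 homozygous embryos the log2 difference was 0.96 ± 0.21 (adjusted p = 0.131), and 0 of 10 probe sets passed, against 0.459% of all. In wild-type embryos it was 1.48 ± 0.21 (adjusted p = 0.0149), where Ngfr was 1 of 10 probe sets past the threshold, against 0.782% of all. The 2 genotypes' region differences were compared in the interaction, which for Ngfr was -0.52 ± 0.30 and did not pass (adjusted p = 0.9995). The wild-type call was lost without wild-type hindbrain replicate 1 (adjusted p = 0.144) and without wild-type forebrain replicate 1 (0.0723) or replicate 2 (0.0596). It was also lost without an intensity trend (0.0643) and with the 4 wild-type arrays alone (0.128).

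The levels of Ngfr by this probe set ran in the order wild-type hindbrain, Pax6 homozygous hindbrain, wild-type forebrain, Pax6 homozygous forebrain. The forebrain pair, at 2260.1 ± 69.5 in Pax6 homozygous and 2365 ± 109 in wild-type arrays (SD, n = 2 each), overlapped. The hindbrain pair did not overlap, at 4399.8 ± 189 in Pax6 homozygous and 6632 ± 1230.0 in wild-type arrays. That gap was a log2 difference of -0.58 ± 0.21, with an unadjusted p = 0.0225 and an adjusted p = 0.989, and did not pass. The other Ngfr probe set, described next, ran the opposite way in hindbrain.

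The second Ngfr probe set, U25650_f_at, did not give a usable comparison. A name ending in _f_at marks, by the maker's convention, probes shared within a gene family. It read 7970 and 5062 in Pax6 homozygous hindbrain, 2346 and 4717 in wild-type hindbrain, -427 and 3626 in Pax6 homozygous forebrain and 2794 and 4361 in wild-type forebrain. The regions overlapped, the log2 difference was 1.95 ± 1.11 (adjusted p = 0.779), and the spread within groups was wide. With each genotype taken alone, the region difference was 3.96 ± 1.57 in Pax6 homozygous embryos (limma, adjusted p = 0.713). In wild-type embryos it was -0.07 ± 1.57, with overlapping arrays. In hindbrain both Pax6 homozygous arrays lay above both wild-type arrays (log2 difference 0.93 ± 1.57, adjusted p = 1), the reverse of X05137_at, so the direction of Ngfr by genotype is not settled by these probe sets. Without Pax6 homozygous forebrain replicate 2 it passed for region (log2 difference 3.52, adjusted p = 0.00362), because the remaining array of that group is the reading of -427.

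**Figure D2:**
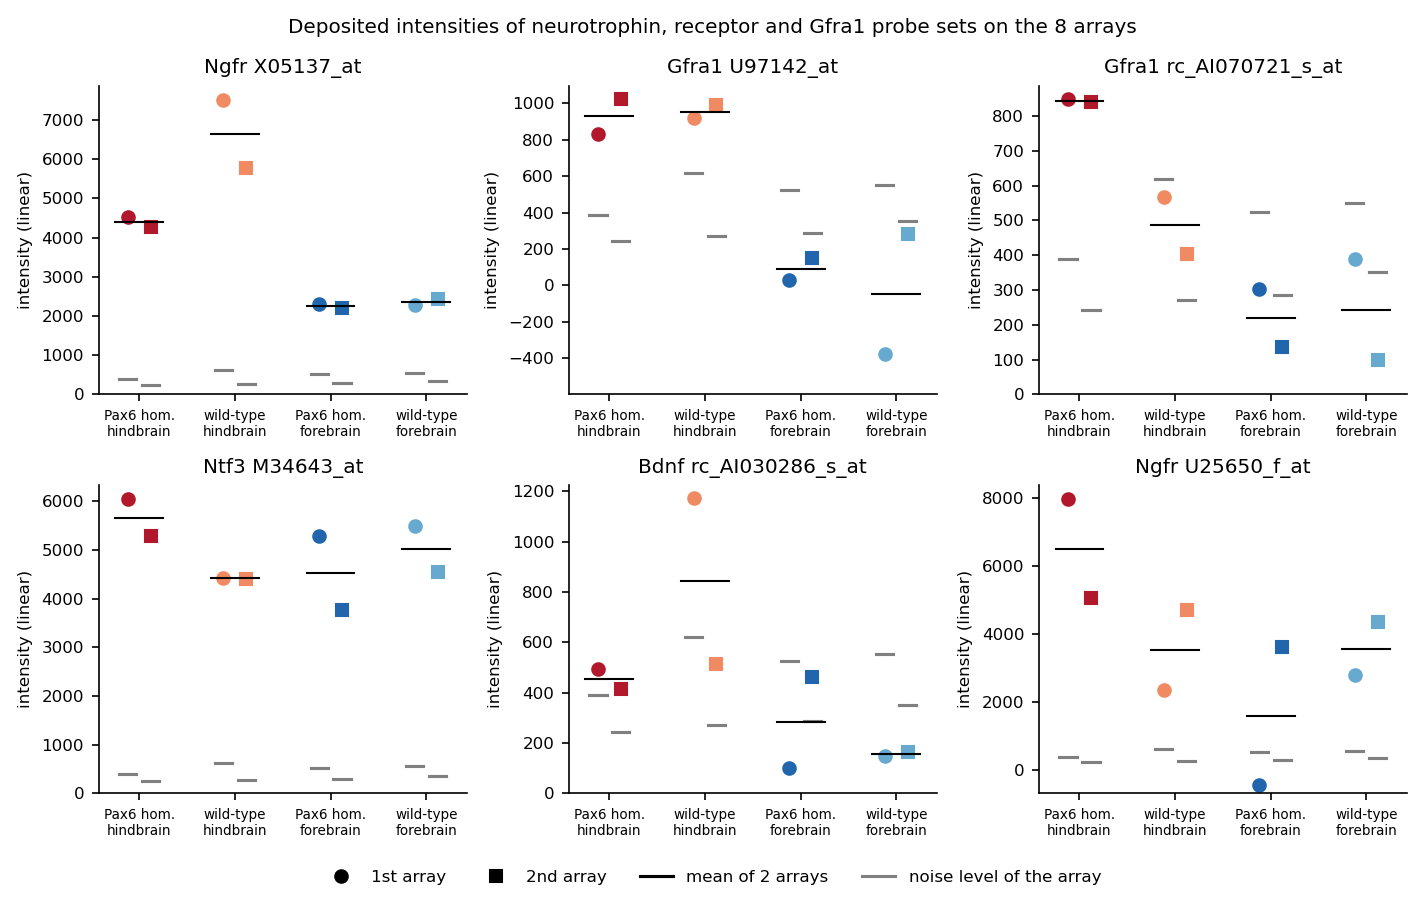
Deposited intensity (linear scale) of 6 probe sets on each of the 8 arrays, by group. Coloured points are arrays, black bars group means and grey ticks the noise level of each array. X05137_at of Ngfr and both Gfra1 probe sets sit higher in all hindbrain than in all forebrain arrays, while M34643_at of Ntf3 overlaps between regions.

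Gfra1, the GDNF co-receptor, was above noise only in the hindbrain part. U97142_at read 832 and 1026 in Pax6 homozygous hindbrain and 920 and 991 in wild-type hindbrain, each above the noise level of its array. It read 29.8 and 152 in Pax6 homozygous forebrain and -374 and 285 in wild-type forebrain, each under it. With the forebrain arrays taken at their noise levels, Gfra1 was at least 2.27-fold higher in hindbrain, and at least 2.38-fold in Pax6 homozygous and 2.17-fold in wild-type embryos. The fitted log2 difference of 3.27 ± 0.65 depends on the floor set for dim values and just missed the threshold (adjusted p = 0.0551).

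Whether this difference passed depended on the settings. The same difference passed with the floor at the pooled median (0.92, adjusted p = 0.0122), with the floor at the 10th percentile of positive values (2.82, adjusted p = 0.0174), with replicate number as a block (adjusted p = 0.0141) and without wild-type forebrain replicate 2 (3.92, adjusted p = 0.016). It did not pass in the other 12 of 16 alternatives, where adjusted p reached 0.29. No alternative turned its direction. The median floor lies above all forebrain readings of Gfra1 and sets them to 1 value, so that pass leaves out their spread. With the floor at each array's noise level, the difference was 1.185 ± 0.33 and did not pass (limma, adjusted p = 0.139).

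The other Gfra1 probe set, rc_AI070721_s_at, gave the same order of regions at lower signal. It read 849 and 839.6 in Pax6 homozygous hindbrain, 568 and 404 in wild-type hindbrain, 304 and 135 in Pax6 homozygous forebrain and 388 and 100 in wild-type forebrain. The regions did not overlap, and 3 of 4 hindbrain arrays and 0 of 4 forebrain arrays were above noise. In Pax6 homozygous embryos Gfra1 was at least 2.18-fold higher in hindbrain by this probe set. No bound is given for wild-type embryos or for both genotypes together. There, wild-type hindbrain replicate 1 (568) lay under its noise level (619.8), and 1 of 2 wild-type hindbrain arrays was above noise. With the floor at each array's noise level the log2 difference over both genotypes was 0.65 ± 0.36 (limma, adjusted p = 0.907). The log2 difference was 1.67 ± 0.52 (adjusted p = 0.286). Of the 10 tested probe sets, 4 were higher on every hindbrain array than on any forebrain array, against 4.37% of all tested. They were X05137_at of Ngfr, both of Gfra1 and E03082cds_s_at of Ntf3, and the members were chosen with earlier results of these data known. The count supports nothing by itself, since E03082cds_s_at and U97142_at were bright enough to be tested through their hindbrain readings alone. E03082cds_s_at was above noise on 2 of 8 arrays, so its order of regions lies within noise.

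By genotype, the Gfra1 probe sets did not pass and did not give the same picture. U97142_at was at 929 ± 137 in Pax6 homozygous and 955.5 ± 49.6 in wild-type hindbrain (SD, n = 2 each), a log2 difference of -0.05 ± 0.93. Its 95% interval, from -2.16 to 2.06, is wide. The probe set rc_AI070721_s_at was at 844.5 ± 6.93 in Pax6 homozygous and 486 ± 115 in wild-type hindbrain, where the arrays did not overlap (log2 difference 0.82 ± 0.74, adjusted p = 0.991).

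Ntf3, the neurotrophin made by tissues that growing axons cross and by their targets, did not differ detectably between regions by its brighter probe set. M34643_at read 6044 and 5284 in Pax6 homozygous hindbrain, 4433 and 4398 in wild-type hindbrain, 5289 and 3775 in Pax6 homozygous forebrain and 5496 and 4550.2 in wild-type forebrain. The regions overlapped, with a mean of 5039.7 ± 784 in hindbrain and 4778 ± 782 in forebrain (SD, n = 4 arrays each). The log2 difference was 0.08 ± 0.16, with a 95% interval from -0.27 to 0.43. That value averages genotypes of opposite sign. In Pax6 homozygous embryos the difference was 0.34 ± 0.22 (interval -0.16 to 0.84) with overlapping arrays. In wild-type embryos it was -0.18 ± 0.22 (interval -0.68 to 0.32), with both hindbrain arrays below both forebrain arrays. The interaction was 0.52 ± 0.31 and did not pass (adjusted p = 0.9995).

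The 4 group means of Ntf3 spanned 0.36 on the log2 scale, in the order Pax6 homozygous hindbrain, wild-type forebrain, Pax6 homozygous forebrain, wild-type hindbrain. The arrays of each group overlapped with those of its neighbours in that order. Within hindbrain the Pax6 homozygous arrays, at 5664 ± 537, lay above the wild-type arrays, at 4416 ± 24.7 (SD, n = 2 each). That difference, 0.36 ± 0.22 on the log2 scale, did not pass (adjusted p = 0.989). The second Ntf3 probe set, E03082cds_s_at, was above noise on 2 of 8 arrays and ranged from 138 to 483.

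Bdnf, which supports placodal and crest-derived sensory neurons, gave low readings on this array. Of its 7 probe sets, 4 were tested and 0 passed in any contrast. The probe set with the clearest region gap was rc_AI030286_s_at, with 494 and 416 in Pax6 homozygous hindbrain and 1171 and 515 in wild-type hindbrain. The same probe set read 102 and 463 in Pax6 homozygous forebrain and 149 and 162 in wild-type forebrain. All 4 hindbrain arrays and 1 of 4 forebrain arrays were above noise, the regions overlapped, and the log2 difference was 1.69 ± 0.55 (adjusted p = 0.321).

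In wild-type embryos alone, rc_AI030286_s_at was above noise on 2 of 2 hindbrain arrays and 0 of 2 forebrain arrays, at least 1.76-fold higher in hindbrain (log2 difference 2.32 ± 0.78, adjusted p = 0.539). The other 3 tested Bdnf probe sets did not follow it. Their log2 differences by region were 0.22 ± 0.34 (D10938exon_s_at), -0.93 ± 0.82 (S76758_i_at) and -0.01 ± 0.43 (S76799_at). A name ending in _i_at marks a probe set with fewer probes than usual, by the maker's convention, and S76758_i_at ranged from -64.6 to 1237. The remaining 3 probe sets of Bdnf stayed under noise on all 8 arrays, with readings between -140.7 and 184.

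**Figure D3:**
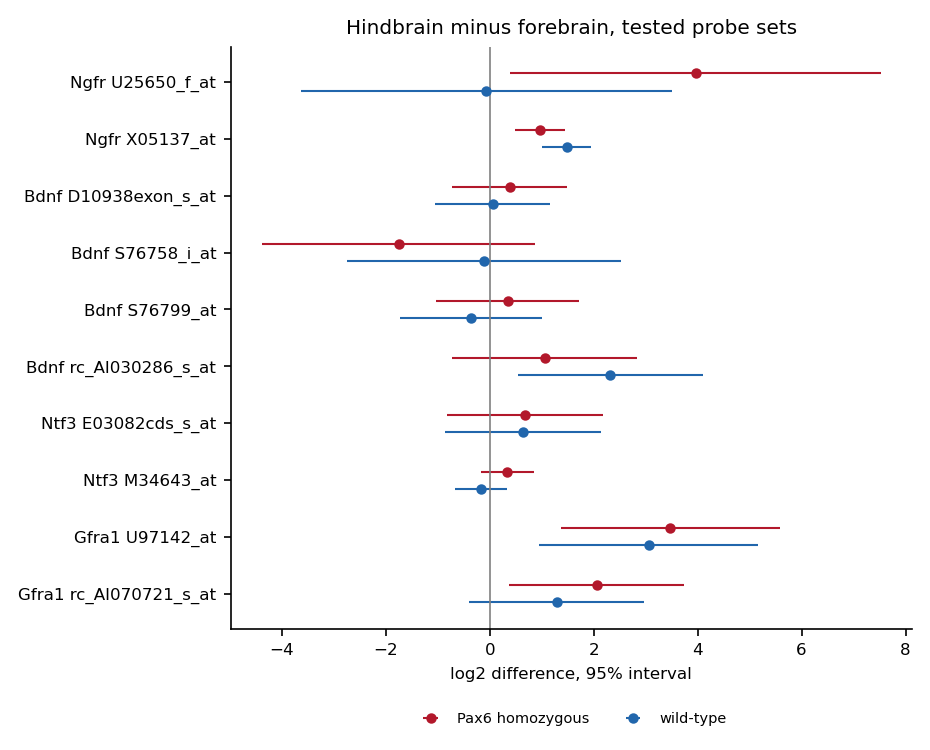
Log2 difference, hindbrain minus forebrain, of the 10 tested probe sets in Pax6 homozygous and wild-type embryos, with the 95% interval from limma. The intervals of X05137_at of Ngfr (0.48 to 1.44 in Pax6 homozygous and 1.00 to 1.95 in wild-type embryos) and of U97142_at of Gfra1 (1.36 to 5.58 and 0.95 to 5.17) lie above 0 in both genotypes, before any adjustment.

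By genotype, 0 of the 10 probe sets passed in hindbrain, against 0.017% of all probe sets tested with limma, and 1 had an unadjusted p under 0.05, Ngfr as given above. Within hindbrain the Pax6 homozygous and wild-type arrays did not overlap for 6 of the 10, against 34.5% of all tested, 2 arrays against 2. In forebrain 0 of 10 passed, against 0.017% of all, with 0 at an unadjusted p under 0.05. Over both regions 0 of 10 passed, against 0.034% of all, and 0 had an unadjusted p under 0.05. For the interaction 0 of 10 passed, against 0.0% of all, again with 0 at an unadjusted p under 0.05. The median log2 difference of the 10 was 0.08 in hindbrain and -0.14 in forebrain, beside 0.04 and 0.01 for all tested probe sets.

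**Figure D4:**
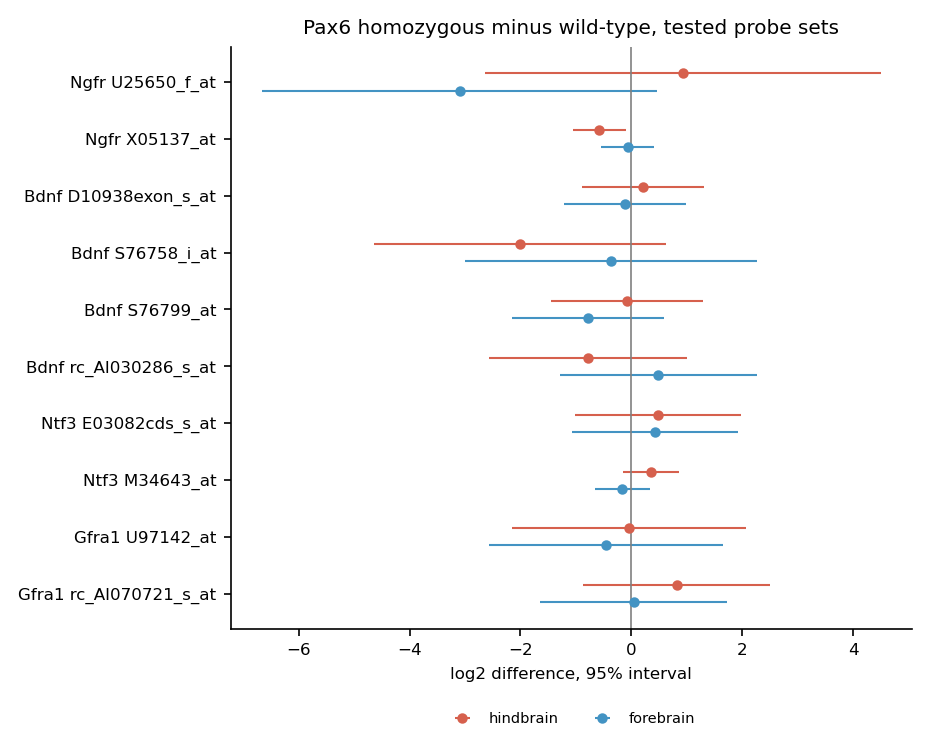
Log2 difference, Pax6 homozygous minus wild-type, of the 10 tested probe sets in hindbrain and in forebrain, with the 95% interval from limma. X05137_at of Ngfr in hindbrain, from -1.06 to -0.10, is the probe set whose interval leaves out 0.

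Other genes of the neurotrophin and GDNF families on the array were Ntf4, Sort1, Gdnf, Gfra2, Ncam1, Pspn and Ret. They had 13 probe sets, of which 10 were tested. Against 1.51% of all probe sets tested (89 of 5881), 1 of these 10 passed for region. That was X06564_at of Ncam1, the neural cell adhesion molecule, which can also bind GDNF with Gfra1. It read 4072 and 2683 in Pax6 homozygous hindbrain and 5123 and 5134 in wild-type hindbrain, against 1116 and 2247 in Pax6 homozygous forebrain and 1402 and 1305 in wild-type forebrain. All hindbrain arrays lay above all forebrain arrays, and the log2 difference was 1.49 ± 0.25 (adjusted p = 0.0218). With each genotype taken alone it did not pass (limma, adjusted p = 0.0567 in wild-type and 0.505 in Pax6 homozygous embryos). A second Ncam1 probe set was under noise on all 8 arrays.

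Ret, the kinase that signals for Gfra1, did not pass for region, and its probe sets differed in signal. Its probe set rc_AI639318_at read 344 and 326 in Pax6 homozygous hindbrain and 439 and 303 in wild-type hindbrain, against 100.3 and 131 in Pax6 homozygous forebrain and 87.5 and 127 in wild-type forebrain. Those hindbrain readings were all higher, but 2 of 8 arrays were above noise and the log2 difference of 1.67 did not pass (adjusted p = 0.242). Another Ret probe set, AF042830_at, was above noise on 4 of 4 hindbrain and 2 of 4 forebrain arrays. It overlapped between regions (log2 difference 0.32, limma adjusted p = 0.998). A further Ret probe set, rc_AA859878_at, was above noise on 0 of 8 arrays.

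The ligands and the other receptors gave no call. Gdnf, the ligand that Gfra1 presents, was above noise on 0 of 8 arrays, between 124 and 269. Gfra2, the neurturin co-receptor, was above noise on 8 of 8 arrays by AF003825_s_at, with a log2 difference by region of 0.19 (adjusted p = 0.999). Its other probe set, U97143_at, was above noise on 2 of 8 arrays, with a difference of 1.21 ± 0.62 (adjusted p = 0.70). Pspn, the ligand persephin, had a log2 difference of 0.03, Ntf4, a further TrkB ligand, of -0.41, and Sort1, the co-receptor sortilin, of 0.18 and 0.41 by its 2 probe sets, and none of these passed.

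**Figure D5:**
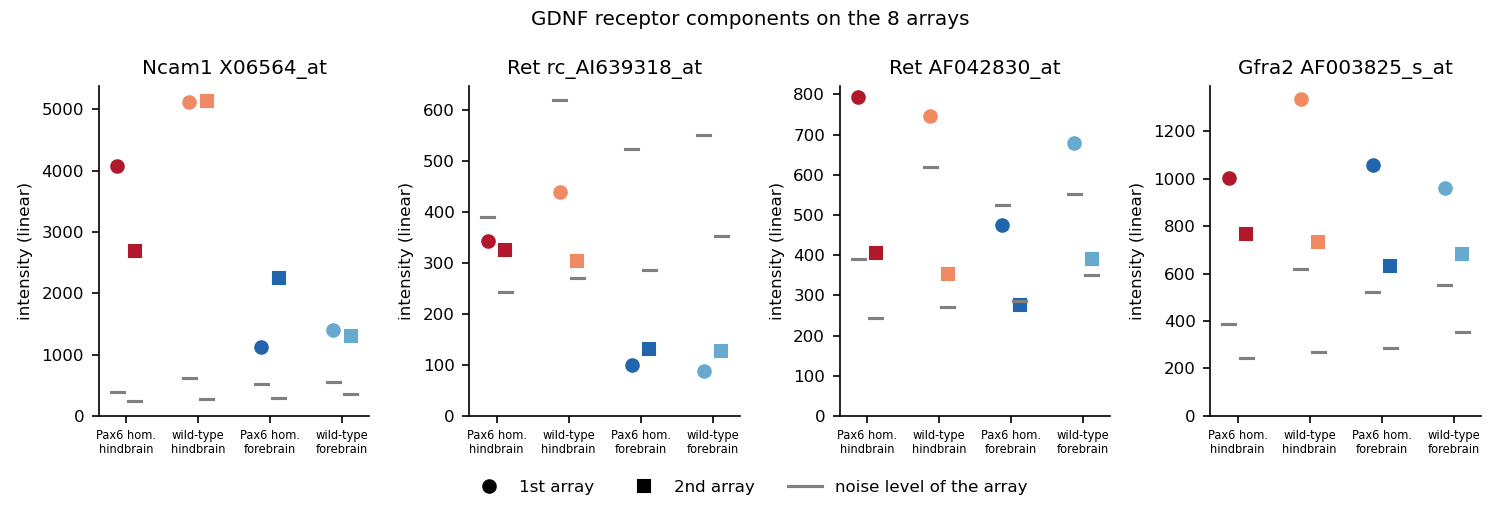
Deposited intensity (linear scale) of Ncam1, Ret (2 probe sets) and Gfra2 on each of the 8 arrays, by group. Coloured points are arrays and grey ticks their noise levels. Ncam1 is higher on all 4 hindbrain arrays, and the Ret probe set rc_AI639318_at exceeds noise on 2 of 8.

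Downstream of the receptors no gene passed for region. Of 10 tested adaptor and p75 interactor genes, 7 had a positive log2 difference and 0 passed, with a median of 0.17. Shc3, a neuronal adaptor, had 0.71 ± 0.45 and Grb2, the adaptor to Ras, 0.18 ± 0.12. Of 20 tested genes of the Ras, MAPK, PI3K and Akt cascades, 11 were positive and 0 passed (median 0.04). Mapk7, the ERK5 kinase, had 0.37 ± 0.19 and Map2k1, the kinase MEK1, 0.23 ± 0.12. Of 13 neurotrophin-responsive genes, 6 were positive and 0 passed (median -0.03). Egr2, a zinc finger transcription factor also listed among the hindbrain and cord genes, had 0.95 ± 0.56. It was above noise on 1 of 4 hindbrain and 0 of 4 forebrain arrays. Vgf, a secreted neuropeptide precursor, had 0.75 ± 0.50. Over all 3553 genes tested 1845 were positive, 40 passed as higher in hindbrain and 14 as lower, and the median was 0.01.

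Marker genes of crest-derived and placodal neurons that passed by region went both ways. Of 12 tested genes of crest-derived and placodal neurons, 9 had a positive log2 difference, with a median of 0.65. Of these 12, 1 passed as higher in hindbrain and 1 as lower, against 40 and 14 of all 3553 genes tested. The gene that passed as higher was Prph, the peripherin filament of peripheral and motor neurons, at least 3.60-fold (adjusted p = 0.00576). The gene that passed as lower was Tac1, the substance P precursor, at -2.10 ± 0.34. Isl1, a LIM homeobox gene of sensory and motor neurons, had 2.40 ± 0.50 (adjusted p = 0.0614). The summed intensity of the list was between 7749 and 10780.2 in hindbrain and between 4329 and 6451 in forebrain, and Runx1 was under noise on all arrays.

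Of 16 tested genes listed for central neurons, 14 had a positive log2 difference, with a median of 0.56. Of them 3 passed as higher in hindbrain, against 40 of all 3553 genes tested. The 3 were the neurofilament genes Nefl (2.61 ± 0.16) and Nefm (2.78 ± 0.18) and the filament gene Ina (1.42 ± 0.14). The list holds general neuronal genes such as neurofilaments, so it does not separate central neurons from the cranial ganglia in the tissue. Others did not pass, among them Map2, a microtubule protein gene of dendrites (-0.02 ± 0.18), and Gad1, which encodes an enzyme of GABA synthesis (-0.77 ± 0.36), both named after their values were seen. The list summed to between 87314 and 117608 in hindbrain and between 45093 and 49849 in forebrain. In hindbrain and forebrain, Nefl averaged 15196 and 2493, Nefm 19834 and 2942, and Ina 14130 and 5144.5. These 3 genes weigh heavily in the gap between the sums. Of 9 motor neuron genes 7 were positive and 1, Prph, passed as higher, with sums of 6191 to 10915.7 in hindbrain and 3603 to 3859.7 in forebrain. The motor list shares Prph, Isl1, Isl2, Phox2a and Calca with the crest-derived and placodal list, and the part of these cells in the Ngfr and Gfra1 results was not tested.

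Among the other tissue lists, muscle genes gave the most calls as higher in hindbrain. Of 18 tested muscle genes 17 were positive and 4 passed as higher in hindbrain, against 40 of all 3553 genes tested. The muscle sum was between 32882 and 39385 in hindbrain and between 5374 and 9808 in forebrain. Actc1, the cardiac actin of embryonic muscle, was at least 37.4-fold higher, and the others that passed were Tnnc2, Acta1 and Myh3. Of 6 tested neural crest and glia genes 6 were positive and 1 passed, Fabp7, with sums of 6982 to 22706 in hindbrain and 3929 to 7760.5 in forebrain. Fabp7 alone read 1190 to 16568 in hindbrain and 472 to 3934 in forebrain. The crest transcription factor gene Sox10 had 1.99 ± 0.59 (adjusted p = 0.238), with 3 of 4 hindbrain and 0 of 4 forebrain arrays above noise. Isl1 and Sox10, which did not pass, were named after their values were seen. Of 22 arch and head mesenchyme genes 12 were positive, 1 passed as higher (Igf2) and 3 as lower (Alx1, Dlk1 and Dlx5), with sums of 137286 to 161360 in hindbrain and 144319 to 166066 in forebrain. Of 4 otic and branchial placode genes 2 were positive and 1, Dlx5, passed as lower. Of 9 blood and endothelium genes 4 were positive and 0 passed. The part of these tissues in the Ngfr and Gfra1 results was not tested.

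By genotype in hindbrain, 3 of 16 central neuron genes and 3 of 12 crest-derived and placodal neuron genes had a positive log2 difference, with medians of -0.25 and -0.39 and 0 past the threshold in each list, beside -0.58 for Ngfr by X05137_at, 0.93 by U25650_f_at and a median of 0.03 for all genes. The central neuron sum was between 87314 and 87371 in Pax6 homozygous and between 104122 and 117608 in wild-type hindbrain. The crest-derived and placodal sum was between 7749 and 8627 in Pax6 homozygous and between 10101 and 10780.2 in wild-type hindbrain. The smallest p in the central list belonged to Ina (-0.87 ± 0.20, adjusted p = 0.894), and Gap43 of growth cones had -0.71 ± 0.19. Of 6 neural crest and glia genes 3 were positive and 1 passed as lower, Fabp7, a fatty acid binding protein gene of radial glia and crest-derived glia (-3.72 ± 0.23, adjusted p = 5.58e-04). That list summed to between 6982 and 7763 in Pax6 homozygous and between 22229 and 22706 in wild-type hindbrain. Fabp7 alone ran from 1190 to 16568 over the hindbrain arrays and weighs heavily in that sum, while the list median was -0.04. In forebrain 1 gene of the list also passed as lower by genotype. Its forebrain sum was between 3929 and 4167 in Pax6 homozygous and between 7285 and 7760.5 in wild-type arrays. Within hindbrain, blood and endothelium genes leaned the same way as the neuron lists, with 1 of 9 positive (median -0.21). So did arch and head mesenchyme genes, with 6 of 22 (median -0.08). Adaptor and p75 interactor genes (7 of 10, median 0.08) and neurotrophin-responsive genes (8 of 13, median 0.12) leaned upward. Otic and branchial placode genes (3 of 4, median 0.32) did too. Genes of the Ras, MAPK, PI3K and Akt cascades leaned downward (7 of 20, median -0.10). Medians were also negative for motor neuron genes (3 of 9, -0.17), muscle genes (7 of 18, -0.06) and GDNF family genes beyond Gfra1 (1 of 5, -0.59). The same held for the neurotrophin family beyond the members (0 of 2, -1.045). The central neuron list does not separate central neurons from ganglia, and the relation of all these lists to the Ngfr readings was not tested.

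The genes whose pattern was most like that of Ngfr were found by the root mean square distance of mean-centred log2 intensities over the 8 arrays, among tested probe sets with 1 gene symbol. The nearest 4 probe sets were of Spock2, a proteoglycan (distance 0.18), Dpysl4, a collapsin response mediator protein (0.19), and Rtn1, a reticulon read by 2 probe sets (0.19 and 0.24). Dpysl4 read 5721 to 9163 in hindbrain and 2543 to 2922 in forebrain (log2 difference 1.44 ± 0.15, adjusted p = 0.00162). Rtn1 read 11396 to 17142 in hindbrain and 5265 to 7027 in forebrain by X52817cds_s_at (1.24 ± 0.13, adjusted p = 0.00164).

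Nearest to Gfra1 (U97142_at) were Hoxd3, a homeobox gene of the caudal hindbrain and cord (0.62), Pdlim3, a muscle LIM protein gene (0.68), Cxcl14, a chemokine gene (0.69), and Cartpt, a neuropeptide precursor gene (0.71). These distances are larger than for Ngfr, and the forebrain values of all 4 lay at or under 201. For Bdnf, S76758_i_at was nearest to Prps2 (0.53), Mphosph8 (0.55), Kcna4 (0.57) and Pou2f3 (0.64), with 0 to 7 arrays above noise. The Ntf3 groups spanned less than 1 on the log2 scale, and Ntrk2 and Ntrk3 were not above noise, so no likeness is given for them.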

How the data were processed

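Per the labels, poly(A) RNA was made into biotin-labelled cRNA and hybridised to an Affymetrix rat array. The intensity values are as the authors deposited them, 1 for each probe set on each array. Software and scaling: not given in the sources used here. Each array's mean after trimming 2% at both ends was between 2504.1 and 2504.8, so the scaling was kept. Of 8799 probe sets, 59 controls were left out. Names came from the platform annotation, and 0 symbols changed against RefSeq. Intensities under the pooled 25th percentile (45.9) were set to it before log2. Testing covered probe sets that exceeded the pooled 40th percentile (255) on 2 or more arrays, with limma 3.58.1 (R 4.3.3), 4 group means, an intensity trend and two-sided p-values, with 4 residual and 4.63 prior degrees of freedom. List counts use 1 probe set per gene, the brightest tested. Unless called "at least", a fold is 2 to the power of the log2 difference, and ± beside a log2 difference is the standard error. For a bound ("at least"), a dim array of the lower side counts at its noise level, or at its own reading where that is larger. A bound is given only where every array of the higher side was above noise. The fit was checked on simulated data with independent noise on each array. That check did not cover the floor or the shared deviation of same-numbered arrays. Alternatives changed the floor, filter, trend, normalization, replicate block, arrays in the fit and each array in turn. A floor at each array's noise level and leaving out _f_at and _i_at probe sets were chosen after seeing the data. The members, lists and rule for named genes (the members, all family genes, list genes that passed or had the smallest p, and the 4 nearest probe sets) were chosen with earlier results of these data known. The number of arrays limits the precision.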

Additional observations from a re-analysis of the deposited data

How the results depend on the processing

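The region call of Ngfr by X05137_at held in 16 of 16 alternatives. The number of tested neurotrophin, receptor and Gfra1 probe sets past the threshold by region was 1, and it was 3 when the floor was the pooled median and 2 with the floor at the 10th percentile of positive values, the added ones being Gfra1 probe sets. Leaving out 1 array gave 1 to 2. The median floor lies above all forebrain readings of Gfra1 and sets them to 1 value. With the replicate number as a replicate block the count by region was 2, Gfra1 U97142_at joining Ngfr. Same-numbered arrays deviated together (r between 0.275 and 0.465 across probe sets), with 2 numbers a group. In wild-type embryos the region count of 1 became 0 without an intensity trend and 0 with the compared arrays alone, and was 0 to 1 with 1 array left out. In Pax6 homozygous embryos the count of 0 became 1 (Gfra1 rc_AI070721_s_at) at the median floor, and was 0 to 1 with 1 array left out. The genotype count in forebrain was 0 to 1 with 1 array left out, the 1 being the Ngfr probe set U25650_f_at without Pax6 homozygous forebrain replicate 2. The counts for genotype in hindbrain, genotype over both regions and the interaction stayed at 0 in all alternatives run. The region difference of Ntf3 M34643_at turned to -0.042 without Pax6 homozygous forebrain replicate 2, in a range from -0.042 to 0.20 with 1 array left out. Over all tested probe sets the replicate block gave 139 calls by region against 89, and 65 against 27 in Pax6 homozygous embryos; the median floor, no dim filter and no trend gave 15, 22 and 5 for genotype in hindbrain against 1, 10, 19 and 3 over both regions against 2, and 8, 13 and 4 for the interaction against 0. Their other alternatives gave 1 to 3, 1 to 5 and 0 to 1. Genotype in forebrain gave 0 to 5 over the alternatives against 1. With 1 array left out the region calls were 37 to 82, those in wild-type 23 to 49 and those in Pax6 homozygous embryos 14 to 32. With the noise level as floor Pax6 homozygous embryos had 46, and with the compared arrays alone wild-type embryos had 21. The causes were not tested. Signal over noise limits Bdnf, Gfra1, Ntrk2 and Ntrk3.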

Other observations

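Several probe sets differed by array number within every group. Both S76758_i_at and S76799_at of Bdnf, M34643_at of Ntf3 and rc_AI070721_s_at of Gfra1 were higher on replicate 1 than on replicate 2 in 4 of 4 groups. U97142_at of Gfra1 and D10938exon_s_at of Bdnf were higher on replicate 2 in 4 of 4 groups. Among all 5881 tested probe sets, 1546 (26.3%) were higher on replicate 1 in all 4 groups and 743 were higher on replicate 2. Noise levels were 389 to 619.8 on the replicate 1 arrays and 243 to 352 on the replicate 2 arrays. The labels do not say what the array number stands for.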
